A study of Mus musculus with 4 samples.

Results

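Peroxiredoxins and thioredoxins form the main thiol-based route by which a cell removes hydrogen peroxide. The genes analyzed here were *Prdx1*, *Prdx2*, *Prdx3*, *Prdx4*, *Prdx5*, *Prdx6*, *Txn1*, *Txn2*, *Txnrd2* and *Glrx*, 10 of the 55487 genes in the count data. They were chosen by their symbols, with earlier results of these data known, so the counts and medians below describe only these genes. Other genes of the system, such as *Txnrd1*, were read separately. All 10 had at least 10 counts in total and were among the 19384 genes tested. RNA was sequenced from mouse embryonic fibroblasts (MEFs), which are primary cells with a limited lifespan in culture, made from wild-type C57BL/6J embryos and used at passage 2 per the labels. They were cultured for 24 h in serum-containing medium either with pigment epithelium-derived factor (PEDF, 100 ng/mL) or without it (Control). The PEDF added was a recombinant protein, purified from mammalian cells. There were 2 Control and 2 PEDF libraries, and experiments 1 and 2, which used different embryos, gave 1 of each. PEDF is a secreted protein that muscle cells release, and the study also dealt with PEDF and intracellular reactive oxygen species, so the comparison asks how the transcripts of peroxide-removing enzymes stood after a day of PEDF. The culture medium of the study contained the reducing agent 2-mercaptoethanol in all groups.

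A peroxiredoxin reduces hydrogen peroxide with a reactive cysteine, which is oxidized in the process and forms a disulfide bond. Thioredoxin reduces that disulfide and is itself recycled by thioredoxin reductase at the expense of NADPH. The cytosol and the mitochondria hold separate sets of these proteins, and glutaredoxins do a related task by removing glutathione from protein thiols. In fibroblasts this system limits the peroxide that accumulates under atmospheric oxygen, a known driver of senescence in mouse cells.

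The libraries held 14722848 to 18144640 counts, so that 3 counts correspond to 0.168 to 0.203 CPM (counts relative to the size of the library, scaled by edgeR's TMM factor). Of 9 fibroblast markers, 9 were above 1 CPM in all libraries, with a summed level of 38236 and 44289 CPM in the Control and 35428 and 38083 CPM in the PEDF libraries of experiments 1 and 2. The collagens made up most of this sum, and 3 of the 9 markers (*Dcn*, *Lum* and *Thy1*) were higher with PEDF in both experiments, *Dcn* with 91.0 and 67.1 CPM in the Control and 107 and 92.3 CPM in the PEDF libraries. All 8 erythroid markers stayed below 1 CPM, with *Hbb-bt* and *Hbb-y* among those at 0; red blood cells are rich in *Prdx2*. The summed level of 6 macrophage markers was 131 and 83.6 CPM in the Control and 127 and 106 CPM in the PEDF libraries. Of 6 epithelial markers, 5 reached 1 CPM in a library, at a summed 56.7 and 42.5 CPM in the Control and 55.5 and 43.5 CPM in the PEDF libraries. Muscle markers (4 of 4) summed to 222 and 234 CPM in the Control and 251 and 266 CPM in the PEDF libraries, and neural markers (4 of 4) to between 84.7 and 96.4 CPM. Of 5 endothelial markers 3 reached 1 CPM, with *Tie1* at 0 and a sum between 14.3 and 14.8 CPM. In bulk RNA, a change in the number of cells of a type and a change in RNA per cell cannot be told apart. The p-values below measure the spread between these libraries.

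Together the 10 genes accounted for 1293 and 1146 CPM in the Control libraries of experiments 1 and 2, and for 1359 and 1319.7 CPM in the PEDF libraries. The 6 peroxiredoxins made up most of this, with 989.8 and 876 CPM in the Control and 1041 and 999.8 CPM in the PEDF libraries. The PEDF library was the higher one in both experiments, and the gap was wider in experiment 2, where the Control library was the lowest of the 4.

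Levels of different genes were compared per length, on the deposited TPM scale, as the mean and range of the 4 libraries. *Txn1*, the cytosolic thioredoxin, was the most abundant at 509.8 TPM (467 to 541). It was followed by *Prdx1* at 286 TPM (258 to 301) and *Prdx2* at 236 TPM (212 to 249.5), the cytosolic peroxiredoxins. The ranges of *Prdx1* and *Prdx2* did not overlap. *Prdx5* at 151 TPM (130 to 159) and *Prdx4* at 137 TPM (121 to 145) had overlapping ranges. *Prdx3* followed at 116 TPM (112 to 121), its highest library level with the lowest one of *Prdx4*. *Prdx6* was at 81.4 TPM (76.4 to 84.9) and *Txn2* at 57.9 TPM (51.7 to 63.2), and these ranges stood apart from all others. The lowest were *Txnrd2* at 11.6 TPM (10.9 to 12.5) and *Glrx* at 4.8 TPM (3.5 to 5.5).

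The order of the levels depended in part on the length used. The TPM values divide by the summed length of all annotated exons of a gene, which for *Glrx* and *Prdx2* is much longer than the main transcript. Divided by the length of 1 main transcript per gene instead, the mean level was 180.1 CPM per kb for *Txn1* (161 to 188), 169.5 CPM per kb for *Prdx2* (149 to 185) and 134 CPM per kb for *Prdx1* (118 to 146). On that scale *Prdx2* stood above *Prdx1* with no overlap of their libraries, while those of *Txn1* and *Prdx2* overlapped. The mean of *Prdx4* (103 CPM per kb) was above that of *Prdx5* (90.5 CPM per kb), again with overlap. *Prdx6* (57.8 CPM per kb, 56.1 to 59.0) stood above *Prdx3* (40.9 CPM per kb, 38.6 to 42.1), and *Txn2* (42.0 CPM per kb, 36.7 to 45.1) could not be told apart from *Prdx3*. *Txn1* remained first by its mean, and *Txnrd2* (9.48 CPM per kb) and *Glrx* (6.92 CPM per kb) remained last.

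**Figure D1:**
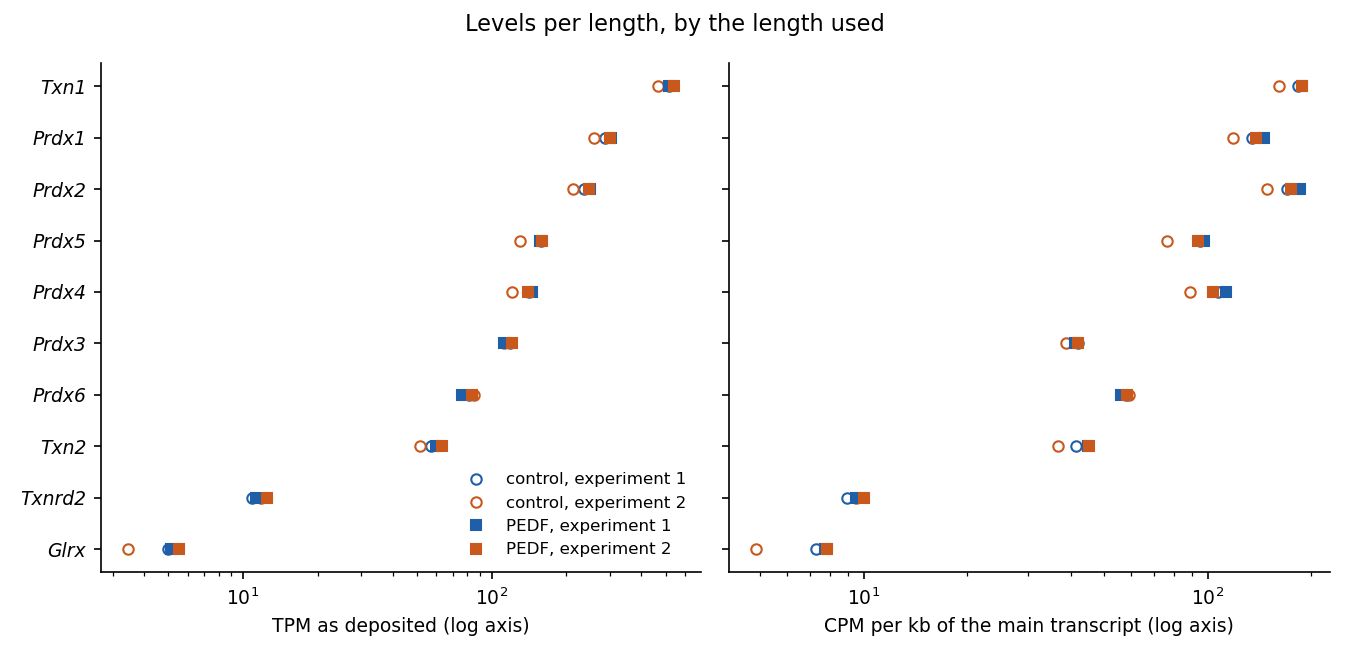
Level of each of the 10 genes in the 4 MEF libraries, as deposited TPM (left) and as CPM per kb of the main transcript (right), on log axes. Circles are Control and squares are PEDF libraries, blue for experiment 1 and orange for experiment 2. *Txn1* was the highest and *Glrx* the lowest on both scales, while *Prdx1* and *Prdx2* changed places.

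By CPM, PEDF-treated MEFs had more transcript than their own Control in both experiments for 8 of the 10 genes, all but *Prdx3* and *Prdx6*. On the deposited TPM scale *Prdx5* was not higher in experiment 1, with 158.0 TPM in the Control and 157.2 TPM in the PEDF library. Over all genes tested, 30.1% were higher with PEDF in both experiments. The differences were small. The median log2 ratio of PEDF to Control over the 10 genes was 0.08 in experiment 1 and 0.22 in experiment 2, against 0.00 in each for well-expressed genes (a mean log2 CPM above 3). For 6 genes (*Prdx1*, *Prdx2*, *Txn1*, *Txn2*, *Txnrd2* and *Glrx*) both PEDF libraries were above both Control libraries by CPM, an order that 18.9% of all genes tested had. For *Txnrd2* the nearest libraries were at 18.07 CPM (PEDF, experiment 1) and 18.05 CPM (Control, experiment 2). On the TPM scale these were 11.26 and 11.87, so its groups overlapped. By the quasi-likelihood test of edgeR, fitted with no covariate, 0 of the 10 genes had an adjusted p under 0.05 (Benjamini-Hochberg over all genes tested), as did 0.00% of all genes in the direction of a rise. At an unadjusted p under 0.05, 3 of the 10 were higher (*Prdx1*, *Prdx2* and *Txn2*), beside 3.22% of all genes. DESeq2 without the block gave 0 of the 10 at an unadjusted p under 0.05, beside 0.573% of all genes higher, and 0 of the 9 with an adjusted p (all but *Glrx*), beside 0.0238%. limma on log2(TPM + 1) gave 0 of the 10 at an unadjusted p under 0.05, beside 2.48%, and 0 at an adjusted p, beside 0.00%. When the experiment was fitted as a block, so that each PEDF library was compared with the Control from the same embryos, the same 3 genes had an adjusted p under 0.05 and a higher level, beside 1.67% of all genes. In that fit 7 of the 10 were higher at an unadjusted p under 0.05, beside 7.18% of all genes. With the block in DESeq2 no member passed, beside 2.60% of the genes given an adjusted p. It gave an adjusted p to only 3 of the members, at 0.138 for *Prdx1*, 0.150 for *Prdx2* and 0.421 for *Txn1*, and 2 members were higher at an unadjusted p under 0.05, beside 0.623% of all genes in that fit.

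**Figure D2:**
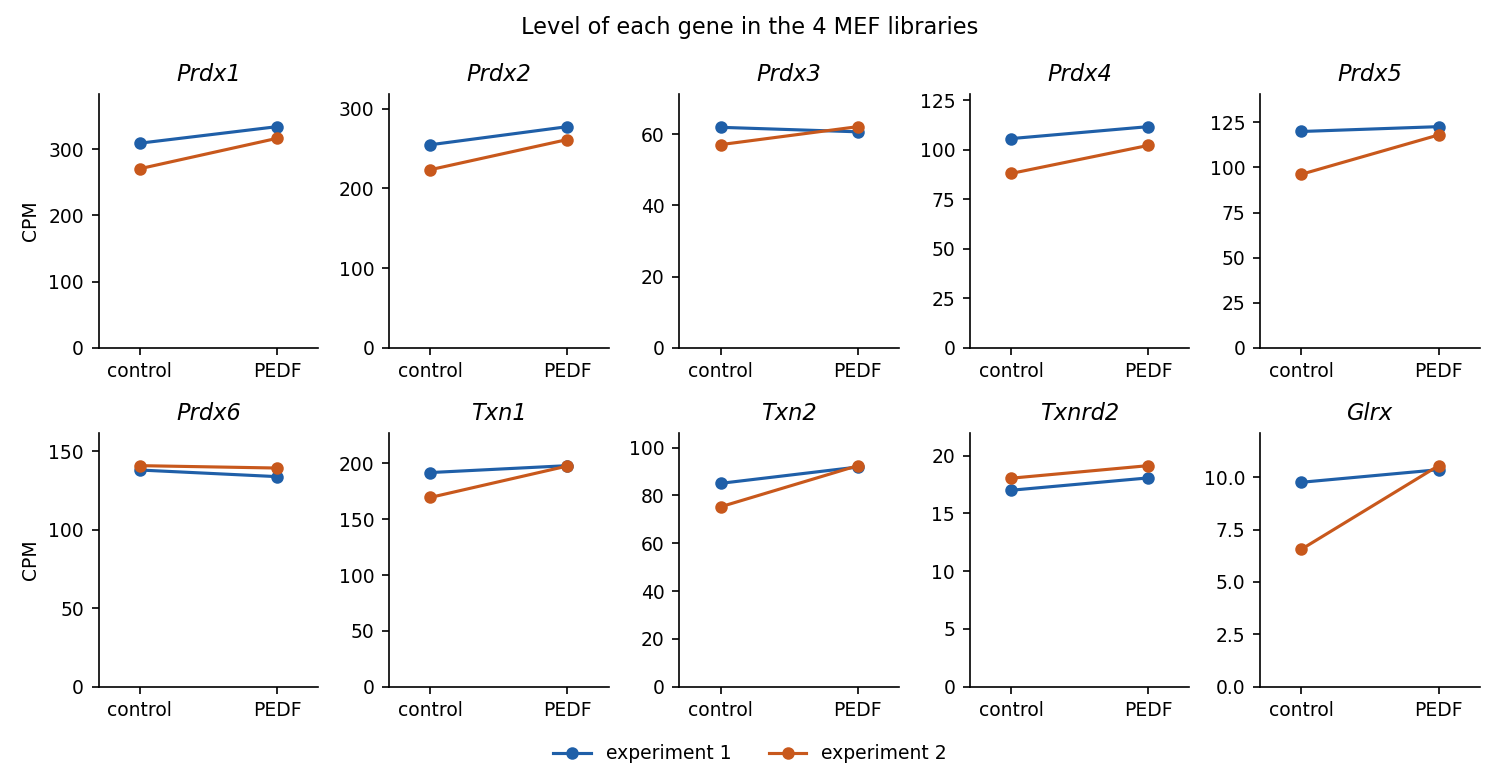
Level of each gene in CPM (from 0) in the Control and the PEDF library of experiment 1 (blue) and experiment 2 (orange), with a line joining the libraries of 1 experiment. The lines climb in both experiments for all but *Prdx3* and *Prdx6*, and of these 8 genes all but *Txnrd2*, with about equal slopes, have the steeper line in experiment 2.

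*Prdx1* and *Prdx2* encode the typical 2-Cys peroxiredoxins of the cytosol, which scavenge hydrogen peroxide and pass its oxidizing signal on to other proteins. *Prdx1* (ENSMUSG00000028691, chr4:116685544-116700822, + strand, mm10) had 309 and 271 CPM in the Control and 334 and 317 CPM in the PEDF libraries of experiments 1 and 2. Both PEDF libraries were above both Control libraries. The increase was 8.09% in experiment 1 (log2 ratio 0.11, 95% counting interval 0.05 to 0.17) and 17.0% in experiment 2 (0.23, 0.17 to 0.28), intervals that cover counting error only. Without the block, the log2 fold change was 0.17 (SE 0.08, adjusted p = 0.714, edgeR). With the block it was 0.17 (SE 0.05, 95% interval 0.08 to 0.26, adjusted p = 0.0112).

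*Prdx2* (ENSMUSG00000005161, chr8:84969587-84974834, + strand) showed a like pattern, with 255 and 223 CPM in the Control and 278 and 261 CPM in the PEDF libraries. The groups did not overlap, and the difference was 8.93% in experiment 1 and 17.0% in experiment 2. The log2 fold change was 0.17 (SE 0.08, adjusted p = 0.713) without the block and 0.18 (SE 0.05, 95% interval 0.08 to 0.27, adjusted p = 0.0104) with it in edgeR. At its ends *Prdx2* shares 181 bp with *Rnaseh2a* and 351 bp with AC163703.1, both on the opposite strand, and the strand setting of the counting is not given in the sources used here. *Rnaseh2a* had 1038 and 1122 counts in the Control and 1146 and 1274 in the PEDF libraries, beside 3761 and 3987 and then 4315 and 4658 for *Prdx2*. The *Prdx2* value is therefore uncertain by the reads in these overlaps.

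*Prdx1* is a known target of the transcription factor Nrf2, which binds antioxidant response elements, and the letters of such an element were looked for in the promoter, from 250 bases before to 50 bases after the RefSeq start site. Promoters were found for 9 of the 10 genes (build GRCm38.p6), all but *Prdx6*. The core TGACNNNGC, searched on both strands, was in 1 of the 9, that of *Prdx1*, and in 12.4% of 32851 promoters of the same length. An AP-1 site, TGANTCA, was in those of *Prdx1* and *Glrx* and in 7.81% of all. The matches are shown because these genes include the most abundant cytosolic peroxiredoxin by TPM and the gene with the largest fold change, 5′ to 3′ on the strand of the gene, with the motif in capitals.
*Prdx1* element core (chr4:116685456-116685484, read on the opposite strand): cagggaaagcGCTGAGTCAtcccccgtag
*Prdx1* AP-1, distal (chr4:116685352-116685378): aacgaggaaaTGACTCAaagggcagtg
*Prdx1* AP-1, proximal (chr4:116685458-116685484): gggaaagcgcTGAGTCAtcccccgtag
*Glrx* AP-1 (chr13:75839777-75839803): taggaagtacTGACTCAtaccaaaatg
The first bases of the capitals lie at -133, -237, -131 and -98 from the start site. The proximal AP-1 match of *Prdx1* overlaps the element core, so these are not independent matches. A GC box (GGGCGG) was present in 8 of the 9 promoters and in 35.7% of all, a CCAAT box in 2 of 9 and 37.4%, and the E-box CACGTG in 1 of 9, that of *Prdx4*, and 7.15%. For *Prdx4* the bases searched before the RefSeq start site were chrX:155338461-155338710, which lie inside the gene span given below. These are matches of letters and were not tested as binding sites.

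*Prdx3* encodes the peroxiredoxin of the mitochondrial matrix (ENSMUSG00000024997, chr19:60864051-60874556, - strand). It had 62.0 and 57.1 CPM in the Control and 60.7 and 62.2 CPM in the PEDF libraries. The libraries of the groups overlapped, and the log2 ratio was -0.03 (-0.16 to 0.10) in experiment 1 and 0.12 (-0.00 to 0.25) in experiment 2. The log2 fold change was 0.05 (SE 0.08, adjusted p = 0.928, edgeR) and did not keep its sign when the trend with length was removed.

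*Prdx4* (ENSMUSG00000025289, chrX:155323918-155340754, - strand) encodes the peroxiredoxin of the endoplasmic reticulum, where it takes part in disulfide bond formation. Its level was 106 and 88.0 CPM in the Control and 112 and 102 CPM in the PEDF libraries. PEDF was higher within each experiment, but the PEDF library of experiment 2 lay below the Control library of experiment 1. The log2 fold change was 0.14 (SE 0.09, adjusted p = 0.764) without and 0.15 (SE 0.06, adjusted p = 0.130) with the block in edgeR.

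*Prdx5* (ENSMUSG00000024953, chr19:6906697-6910106, - strand) encodes an atypical 2-Cys enzyme found in mitochondria, peroxisomes and cytosol. It had 119.97 and 96.2 CPM in the Control and 123 and 118 CPM in the PEDF libraries. Only experiment 2 had an interval above 0, with a log2 ratio of 0.29 (0.20 to 0.39) against 0.03 (-0.06 to 0.13) in experiment 1. With the block the log2 fold change was 0.16 (SE 0.05, adjusted p = 0.0647, edgeR), and without it 0.16 (SE 0.09, adjusted p = 0.763). *Prdx5* shares 409 bp with *Trmt112* on the opposite strand, which had 583 and 681 counts in the Control and 682 and 811 in the PEDF libraries, and its value is uncertain in the same way as that of *Prdx2*.

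*Prdx6* (ENSMUSG00000026701, chr1:161240112-161251219, - strand) encodes the 1-Cys peroxiredoxin, which depends on glutathione instead of thioredoxin and also has phospholipase activity. Its level was 138 and 141 CPM in the Control and 134 and 139 CPM in the PEDF libraries. It was the only one of the 10 genes with a lower value under PEDF in both experiments, a change of -3.05% and -1.08%, and both counting intervals included 0. The log2 fold change with the block was -0.03 (SE 0.05, 95% interval -0.13 to 0.07, adjusted p = 0.875, edgeR). The interval thus covers a fall of 0.13 to a rise of 0.07 on the log2 scale. Whether *Prdx6* differed from the other peroxiredoxins in its response was not tested.

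*Txn1* encodes the cytosolic thioredoxin, the electron donor of *Prdx1*, *Prdx2* and ribonucleotide reductase (ENSMUSG00000028367, chr4:57943373-57956411, - strand). It had 192 and 169.5 CPM in the Control and 198 and 198 CPM in the PEDF libraries. The PEDF libraries differed by less than the Control libraries did from each other. The log2 ratio was 0.05 (-0.03 to 0.12) in experiment 1 and 0.22 (0.15 to 0.29) in experiment 2. Its edgeR log2 fold change was 0.13 with the block (SE 0.05, adjusted p = 0.105) and 0.13 without it (SE 0.07, adjusted p = 0.758).

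*Txn2* encodes the mitochondrial thioredoxin, which reduces the peroxiredoxin of the matrix (ENSMUSG00000005354, chr15:77915047-77929006, - strand). Its level was 85.0 and 75.2 CPM in the Control and 91.8 and 92.4 CPM in the PEDF libraries, without overlap. The difference was 8.03% in experiment 1 (log2 ratio 0.11, 0.00 to 0.22) and 22.9% in experiment 2 (0.30, 0.19 to 0.40). The log2 fold change was 0.20 (SE 0.08, adjusted p = 0.695) without the block and 0.21 (SE 0.06, 95% interval 0.09 to 0.32, adjusted p = 0.0202) with it in edgeR.

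*Txnrd2* encodes the mitochondrial thioredoxin reductase, a selenoprotein that recycles the product of *Txn2* (ENSMUSG00000075704, chr16:18426384-18479073, + strand). It had only 251 and 322 counts in the Control and 281 and 341 counts in the PEDF libraries, or 17.0 and 18.05 CPM against 18.1 and 19.1 CPM. PEDF was higher by 6.29% and 6.03% within the experiments, and the log2 ratios of 0.09 (-0.16 to 0.34) and 0.08 (-0.14 to 0.31) both had intervals that included 0. A difference of this size was not detectable at this depth (log2 fold change 0.09, SE 0.12, adjusted p = 0.827 with the block in edgeR).

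*Glrx* encodes the cytosolic glutaredoxin that removes glutathione from proteins (ENSMUSG00000021591, chr13:75839868-75850154, + strand). It had the fewest reads of the 10 genes, with 144 and 117 counts in the Control and 161 and 188 counts in the PEDF libraries, or 9.75 and 6.56 CPM against 10.4 and 10.5 CPM. The PEDF libraries were alike, and it was the Control library of experiment 2 that stood below the other 3. The log2 ratio was 0.69 (0.35 to 1.03) in experiment 2 and 0.09 (-0.25 to 0.42) in experiment 1. Its log2 fold change of 0.38 with the block was the largest of the 10 (SE 0.16, 95% interval 0.07 to 0.69) and did not pass the test (adjusted p = 0.176, edgeR). Without the Control library of experiment 2 it was 0.10, and without that of experiment 1 it was 0.67.

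**Figure D3:**
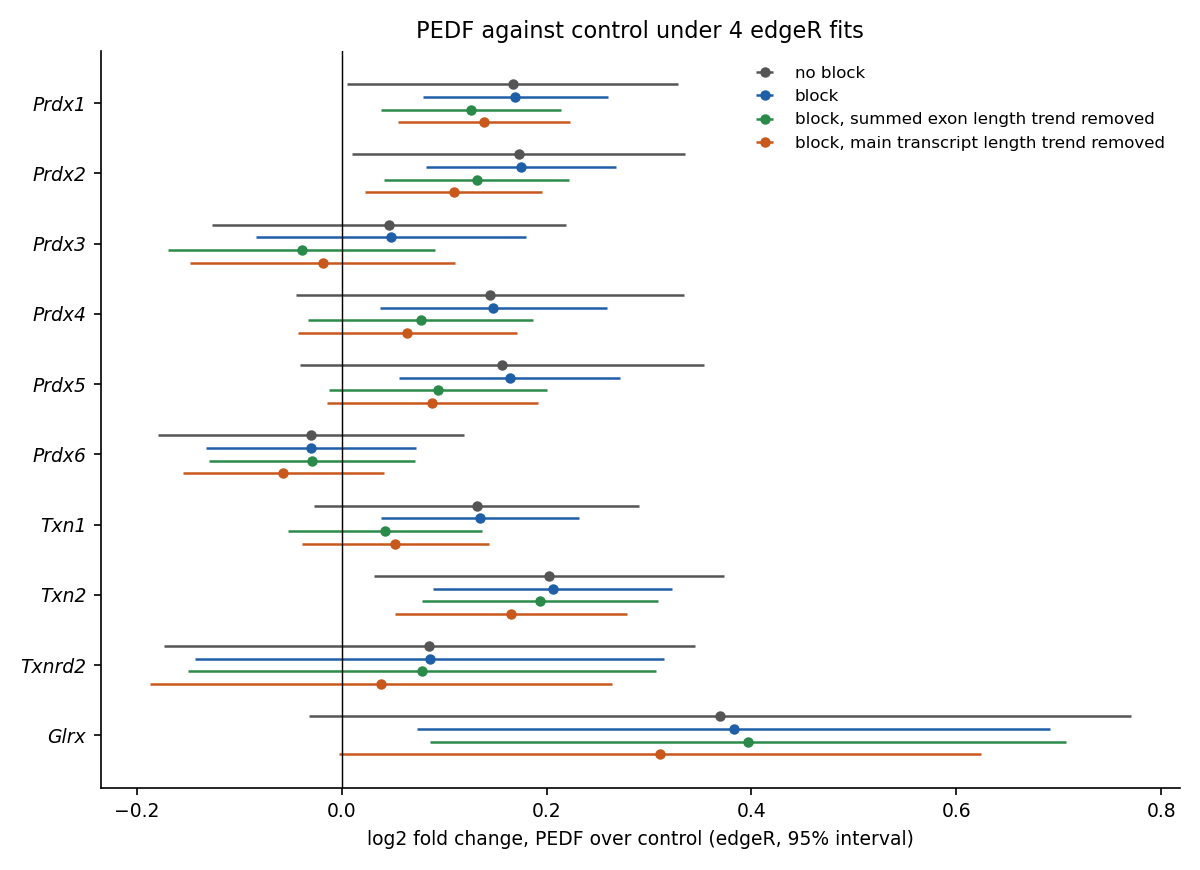
Log2 fold change of PEDF over Control with its 95% interval for each gene, in edgeR without a block (grey), with the experiment as a block (blue), and with the block after the trend with summed exon length (green) or main transcript length (orange) was removed. With the block 7 intervals lie above 0, beside 7.18% of all genes higher at an unadjusted p under 0.05 in that edgeR fit. In the same fit the intervals of *Prdx3*, *Prdx6* and *Txnrd2* include 0, and all 4 values of *Prdx6* are below 0.

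The Control libraries differed from each other about as much as PEDF differed from Control. For 8 of the 10 genes, all but *Prdx6* and *Txnrd2*, the Control library of experiment 2 was lower than that of experiment 1, with a median log2 ratio of -0.18 over the 10, against 0.00 for well-expressed genes. The difference was -0.19 for *Prdx1*, -0.19 for *Prdx2*, -0.32 for *Prdx5* and -0.57 for *Glrx* on the log2 scale. The PEDF libraries were closer to each other than the Control libraries for 8 of the 10 genes, about as close for *Txnrd2* and farther apart for *Prdx6*, with log2 ratios of experiment 2 to experiment 1 from -0.13 for *Prdx4* to 0.08 for *Txnrd2*. The median log2 fold change over the 10 genes was 0.15, against 0.00 over all genes tested. It fell to 0.06 without the Control library of experiment 2 and reached 0.27 without that of experiment 1. In the same order the values were 0.07 and 0.27 for *Prdx1*, 0.08 and 0.27 for *Prdx2*, and 0.11 and 0.29 for *Txn2*. For *Prdx4* they were 0.02 and 0.28, for *Prdx5* 0.003 and 0.32, and for *Txn1* 0.04 and 0.22. *Txnrd2* moved the other way, with 0.13 and 0.04, and *Prdx6* was at -0.02 and -0.04. The summed macrophage markers were also lowest in the Control library of experiment 2, and 4 of the 6 were (*Adgre1*, *Cd68*, *Cd14* and *Lyz2*), but not *Csf1r* and *Ptprc*. *Lyz2* carried most of it, with 60.5 and 26.3 CPM in the Control and 62.6 and 46.1 CPM in the PEDF libraries. Without *Lyz2* the sums were 70.7 and 57.3 CPM in the Control and 64.5 and 59.6 CPM in the PEDF libraries. The epithelial sum was lowest and the fibroblast sum highest in the same library, by the values given above, and the muscle sum was higher with PEDF in both experiments. The part of these markers in the result was not tested.

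Most of these transcripts are short, and transcript length moved with the outcome across all genes. The main transcripts of the 10 genes ranged from 990 bp (*Prdx4*) to 2387 bp (*Prdx6*) with a median of 1489 bp, against 3039 bp for well-expressed genes, and 10 of 10 were below that value. By summed exon length 8 of 10 were below the median of 4623 bp, since *Prdx6* has 4804 bp and *Glrx* 5494 bp of annotated exons. With the block, the median log2 fold change of other genes fell from 0.09 in the shortest twentieth (median 752 bp of exons) to -0.12 in the longest (median 15856 bp). The cause of this trend was not tested.

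Each gene was therefore set beside the genes of like length, at most 25% longer or 20% shorter than itself, that were also well expressed, in windows of 349 to 2847 genes by summed exon length. In these windows the median log2 fold change with the block was between -0.01 and 0.10. By either length 8 of the 10 genes, all but *Prdx3* and *Prdx6*, were above the median of their window, with a median difference of 0.08 by summed exon length and 0.07 by main transcript length. *Glrx* was above 99.7% of the genes of similar summed exon length, *Txn2* above 94.8%, *Prdx2* above 88.1% and *Prdx1* above 87.3%. *Txn1* was above 60.7% of 349 genes as short as itself, whose median was 0.10, and *Prdx3* above 30.5%. *Prdx5*, *Txnrd2* and *Prdx4* were above 80.3%, 76.9% and 75.5% of their windows. By main transcript length *Glrx* was above 99.0%, *Txn2* above 93.2%, *Prdx1* above 88.7%, *Prdx2* above 82.4% and *Prdx5* above 76.3%. *Prdx4*, *Txn1*, *Txnrd2* and *Prdx3* were then above 67.7%, 65.0%, 64.5% and 41.7%. With genes of any level in the window, *Glrx* was above 94.8% by summed exon length and 88.4% by main transcript length. By summed exon length, 59.4% of well-expressed genes as short as *Prdx3* were higher with PEDF in both experiments, and 26.3% of those as long as *Glrx*. Without the limit on expression these shares were 38.8% and 26.0%. By main transcript length they were 53.3% and 56.3% with the limit, and 40.1% and 41.3% without it.

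When the trend with summed exon length was removed from each library before the fit with the block, *Txn2* was the 1 member still past the threshold (log2 fold change 0.19, SE 0.06, adjusted p = 0.0460, edgeR), beside 0.908% of all genes. With the GC trend also removed *Txn2* was again the 1 member past it (adjusted p = 0.0300), beside 1.01% of all genes. With the exon length trend alone removed, *Prdx1* was at 0.13 (SE 0.04, adjusted p = 0.131) and *Prdx2* at 0.13 (SE 0.05, adjusted p = 0.120). *Txn1* moved most of the 10, from 0.13 to 0.04. With main transcript length in its place 0 members passed, beside 0.841% of all genes, and 3 were higher at an unadjusted p under 0.05, beside 5.70%. The adjusted p was then 0.0526 for *Prdx1*, 0.124 for *Txn2* and 0.229 for *Prdx2*. The median over the 10 genes was 0.16 with the block alone, 0.09 after removal of the exon length trend and 0.08 after removal of the main transcript trend.

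**Figure D4:**
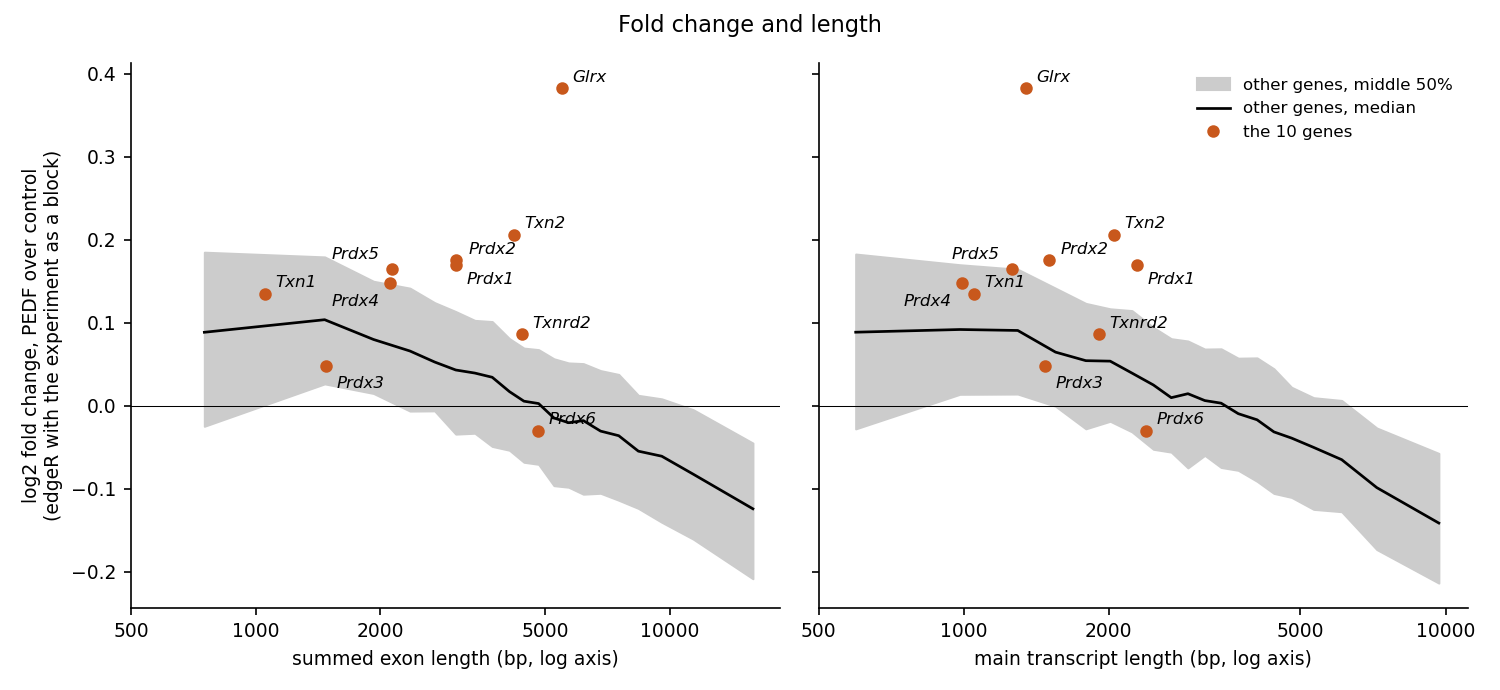
Log2 fold change of PEDF over Control (edgeR with the block) against length on a log axis, by summed exon length (left) and main transcript length (right). The line is the median and the band the middle 50% of the other well-expressed genes in 20 bins of length, and the points are the 10 genes. The median falls from 0.09 to -0.12 along the left axis, and *Glrx*, *Txn2*, *Prdx1* and *Prdx2* are among the points above the band in both panels.

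The other genes of the thioredoxin and glutaredoxin systems were read from a list of 30 symbols, each tested. Without the block 0 of the 30 had an adjusted p under 0.05 and 1 was higher at an unadjusted p under 0.05, beside the 3.22% of all genes, and with the block 1 was higher and 0 lower, beside the 1.67% of all genes higher. In either fit 24 of the 30 had a log2 fold change above 0, with a median of 0.08, beside 50.2% of all genes without and 50.4% with the block. Of the 30, 18 were higher with PEDF in both experiments and 10 had no overlap between groups, beside the 30.1% and 18.9% of all genes given above. Those shares are over genes of every length and level, and shares matched to the 30 genes were not taken. The 1 gene that passed was *Glrx3*, a cytosolic glutaredoxin that carries iron-sulfur clusters. *Glrx3* had 193 and 167 CPM in the Control and 212 and 196 CPM in the PEDF libraries. Its log2 fold change was 0.18 (SE 0.05, adjusted p = 0.0125) with the block in edgeR, 0.18 (adjusted p = 0.0109) after removal of the exon length trend and 0.17 (adjusted p = 0.0138) with the GC trend also removed. The call was lost after removal of the main transcript length trend (0.12, adjusted p = 0.184) and in DESeq2 with the block (0.18, adjusted p = 0.190). In the fit without the main transcript length trend *Txnl1* (0.17, adjusted p = 0.0456) and *Sesn3* (0.21, adjusted p = 0.0369) passed instead, named here after their values were seen.

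Among the regulators and recyclers of the system, *Txnrd1*, *Txnip*, *Srxn1* and *Gsr* did not pass the threshold with the block in edgeR. *Txnrd1*, the cytosolic thioredoxin reductase, had 290.7 and 314.9 CPM in the Control and 282.7 and 295.8 CPM in the PEDF libraries. It was lower with PEDF in both experiments, with a log2 ratio of -0.04 in experiment 1 and -0.09 in experiment 2. Its log2 fold change was -0.07 (SE 0.05, adjusted p = 0.564). *Txnip*, which binds and inhibits thioredoxin, was at 0.01 (SE 0.06, adjusted p = 0.962). *Srxn1*, which restores over-oxidized peroxiredoxins, was at 0.09 (SE 0.07, adjusted p = 0.614). *Gsr*, the glutathione reductase, was at -0.12 (SE 0.07, adjusted p = 0.464). *Nnt*, which makes NADPH in mitochondria and is partly deleted in C57BL/6J mice, had 1 and 8 counts in the Control and 3 and 4 in the PEDF libraries.

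**Figure D5:**
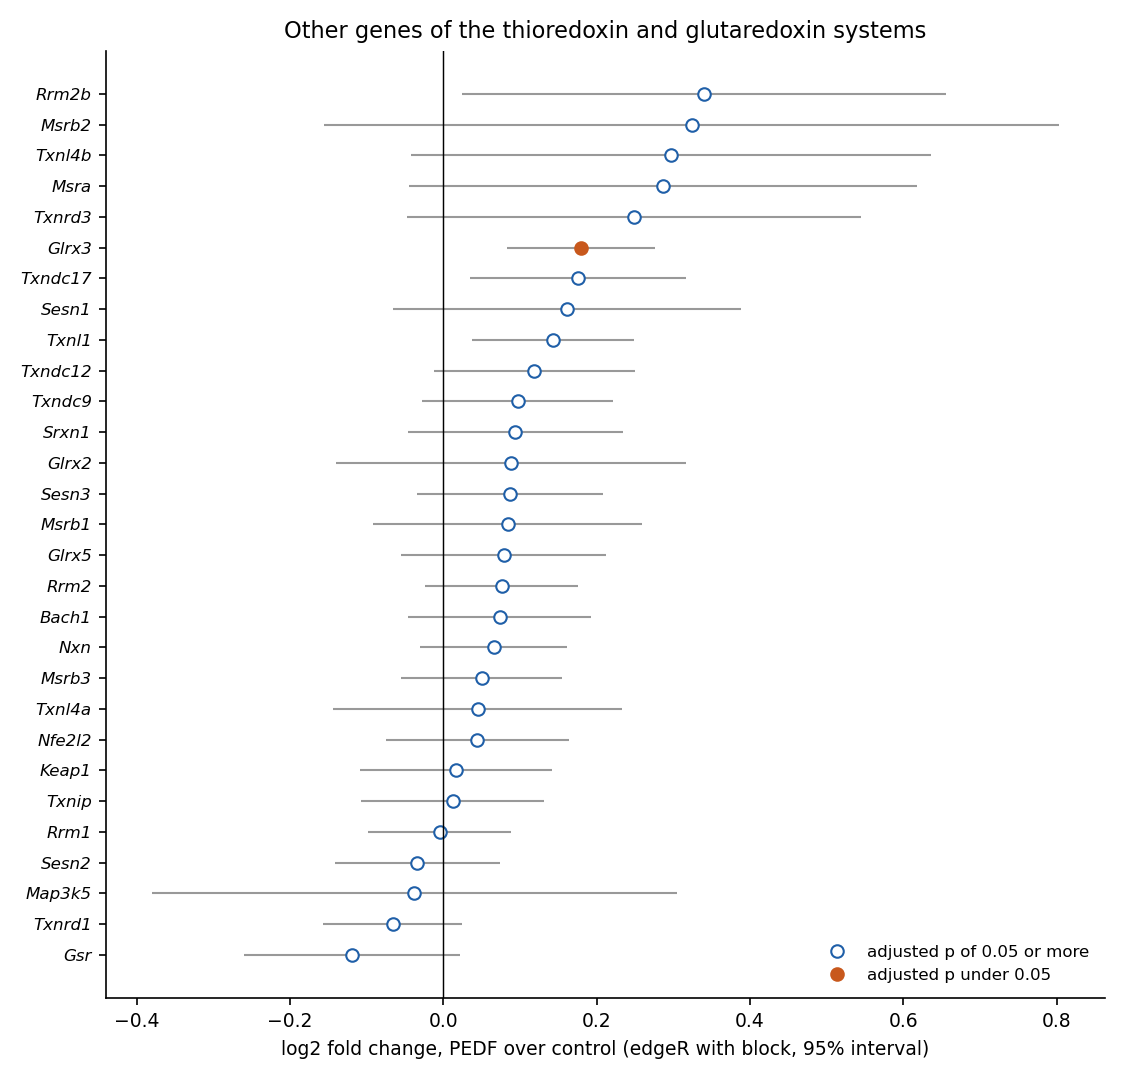
Log2 fold change of PEDF over Control with its 95% interval (edgeR with the block) for the other thioredoxin and glutaredoxin system genes, *Nnt* left out because of its near-zero counts. The filled point, *Glrx3* at 0.18, is the 1 gene with an adjusted p under 0.05, and *Txnrd1* and *Gsr* have values below 0.

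Few reads were assigned to annotated copies of these genes. *Prdx2-ps1* had 1 to 3 counts per library, *Txn-ps1* had 1 count in 1 library, and *Prdx6b*, *Prdx6-ps2*, *Prdx2-ps2* and *Prdx1-ps* had 0. The authors counted uniquely mapped reads, so reads that fit a gene and its copy alike were left out of both.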

How the data were processed

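Polyadenylated RNA of 4 MEF cultures was made into directional libraries and sequenced from both ends. Per the methods and the submitters' processing notes, the authors checked reads with FastQC 0.11.7, trimmed them with Trimmomatic 0.38, aligned them to mm10 with HISAT2 2.1.0, converted the alignments with SAMtools 1.9 and used featureCounts 1.6.3 to count the reads that mapped to 1 place. The deposited counts are not normalized. The authors also deposited TPM values. Which annotation and which strand setting they used is not given in the sources used here. The labels give passage 2 for these cells, and the paper a later one.

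PEDF and Control counts were compared with edgeR 4.0.16 in R 4.3.3 (TMM factors, robust quasi-likelihood test). The test covered 19384 genes whose counts totalled 10 or more, and p-values were adjusted over all of them by Benjamini-Hochberg. The main fit had no covariate, since the paper's methods name none. By the labels, experiments 1 and 2 started from different embryos, so libraries with the same experiment number are paired. Over 10699 genes, the difference between experiments in the Control libraries correlated with that in the PEDF libraries (r = 0.429; this is across genes, and genes are no independent replicates). A second fit therefore had the experiment as a block.

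A gene length beside the counts, foreseen for the comparison by length, was replaced by exon lengths from GENCODE M21. The length implied by TPM equalled this summed exon length within 1% for 98.4% of 12668 genes and for all 10 members. Length and GC trends were modelled per library by natural splines (5 degrees of freedom), and the fitted values served as offsets. Main transcripts were the annotated principal ones. Other alternatives were RLE factors, DESeq2 1.42.0, other count filters, limma 3.58.1 on log2(TPM + 1) and log2(TPM + 0.1), and each library left out. Counting intervals are Poisson-based at 95%.

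The genes named were the 10 members, from a list of 30 related genes *Txnrd1*, *Txnip*, *Srxn1* and *Gsr* and those past the threshold, and copies or overlapping genes with counts, of which some are not reported here. The members and lists were chosen with earlier results of these data known. Promoter sequences are from RefSeq.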

Additional observations from a re-analysis of the deposited data

How the results depend on the processing

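Of 150 values (10 genes under 15 alternatives), 133 kept their direction and their side of the threshold, and 8 kept their direction in DESeq2, which gave them no adjusted p. With the replicate block 3 members passed (*Prdx1* 0.17, *Prdx2* 0.18, *Txn2* 0.21 on the log2 scale), as did 1 gene of the list of 30, beside 1.67% of all genes higher. With the block and the summed exon length trend removed 1 member (*Txn2*, 0.19) and 1 of the 30 passed, beside 0.908% of all genes higher. With the GC trend also removed 1 member (*Txn2*, 0.20) and 2 of the 30 passed, beside 1.01% of all genes higher. With the block and the main transcript length trend removed, an alternative chosen after seeing the data, 0 members and 2 of the 30 passed, beside 0.841% of all genes higher. The block changed no other call, and DESeq2 with the block called 0 members, beside 2.60% higher among the genes given an adjusted p. *Prdx3* turned to -0.0388 with the block and the exon length trend removed, to -0.0616 with GC also removed, and to -0.0185 with main transcript length. With 1 library left out it ranged from -0.0136 (without Control replicate 2) to 0.105 (without Control replicate 1). The cause was not tested. The other 8 genes with a positive value kept it in every alternative run. The median over the members was 0.15 and lay between 0.13 (limma) and 0.15 with other tools, filters and factors. It ranged from 0.0578 to 0.267 when 1 library was left out. Those fits assume that a lone library varies like the other group, and 0 members passed in them, beside 67 genes higher without Control replicate 1, 1 without PEDF replicate 1, 0 without Control replicate 2 and 8 without PEDF replicate 2.

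There were only 2 libraries per group and 1 PEDF library per experiment. *Glrx* and *Txnrd2* had the fewest counts, 117 to 341 in a library, and the widest counting intervals.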
